A study of Mus musculus with 18 samples.

Results

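The matrix metalloproteases (MMPs), the ADAMTS proteases with their ADAMTS-like relatives, and the tissue inhibitors of metalloproteases (TIMPs) were followed across 6 groups of sorted mouse dermal and oral fibroblasts. Members were the genes whose only symbol on the platform begins with Mmp or Timp and a digit, or with Adamts. Of 18193 genes measured, 42 were members: 18 MMPs, 15 ADAMTS proteases, 5 ADAMTS-like proteins and 4 TIMPs. Several probe sets named 21 of the members, and the brightest one (by mean across 18 arrays) stood for the gene. Mmp15, Mmp21, Mmp25, Mmp27, Mmp28, Adamts2, Adamts13, Adamts14 and Adamts17 had no probe set that names them alone and were not analysed here.

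RNA of 3 replicates a group was hybridised to Affymetrix arrays (Mouse 430 2.0), and each value below is a log2 intensity after robust multichip average (RMA) normalisation, so that a difference of 1 is a 2-fold change. In the R26mTmG reporter that all mice carried, a cell is red until Cre switches it and its descendants to green. EPF were the green, not red, dorsal dermal cells of En1Cre; R26mTmG mice, which descend from cells that had expressed Engrailed-1, and ENF were the red, not green, cells of that dermis. Oral (oral mucosa) and Cranial (cranial dermis) were the green cells of Wnt1Cre; R26mTmG mice, in which Wnt1Cre marks neural crest descendants. Ventral and Dorsal were the green cells sorted from dermis of the belly and back sides of mice with En1Cre and R26mTmG. No animal was treated, and per the labels the sort gate of all groups left out cells with CD31, CD45, Tie2, Tie119 or EpCAM. The sample labels give postnatal day 56 for EPF and ENF and day 30 for the other 4 groups, while the study's design text gives 30 days for EPF and ENF too; which is right was not settled. The labels do not say whether the 3 replicates of a group came from separate animals, so p-values measure the spread between these arrays, which may be technical.

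MMPs are zinc-dependent enzymes that cleave collagens and other matrix proteins, and most are made as inactive precursors that other proteases activate. ADAMTS proteases cleave proteoglycans such as aggrecan and versican or trim procollagen, and ADAMTS-like proteins share their binding domains but have no protease domain. TIMPs bind MMPs and, in the case of Timp3, several ADAMTS proteases as well, and block them. In skin, dermal fibroblasts are a main source of Mmp2, Mmp14 and the TIMPs, and Mmp3 and Mmp13 are known as genes that injury and inflammation induce through AP-1, the Fos and Jun transcription factors.

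The members do not all share one kind of promoter. On chromosome 9, 10 protein-coding genes in a row are MMPs (Mmp13, Mmp12, Mmp1b, Mmp3, Mmp1a, Mmp10, Mmp8, Mmp27, Mmp20 and Mmp7), of which 9 were measured. The 250 bases before the start were searched on both strands for the AP-1 motif TGANTCA, the TATA box TATAAA and the GC box GGGCGG in the 27 members with a RefSeq promoter window (GRCm38.p6). TGANTCA was found in 8 of the 27 members, all in the chromosome 9 row, and in 6.75% of all 32851 windows. TATAAA was found in 9 members and 12.37% of windows, and GGGCGG in 15 members and 32.74% of windows. The last 110 bases before the start are shown 5′ to 3′ on the gene's strand, with these motifs in capitals. The first 3 are members of the chromosome 9 row whose values are described below: Mmp3 (chr9:7445712-7445821, plus strand), Mmp10 (chr9:7502232-7502341, plus strand) and Mmp13 (chr9:7272404-7272513, plus strand). The other 3 carry the differences between sites or fractions: Adamtsl3 (chr7:82335584-82335693, plus strand), Adamtsl4 (chr3:95687918-95688027, minus strand) and Mmp11 (chr10:75932503-75932612, minus strand).
Mmp3: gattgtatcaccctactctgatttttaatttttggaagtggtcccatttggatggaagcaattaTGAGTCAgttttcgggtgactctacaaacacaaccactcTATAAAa
Mmp10: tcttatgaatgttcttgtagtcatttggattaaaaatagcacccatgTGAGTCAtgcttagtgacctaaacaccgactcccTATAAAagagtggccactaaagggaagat
Mmp13: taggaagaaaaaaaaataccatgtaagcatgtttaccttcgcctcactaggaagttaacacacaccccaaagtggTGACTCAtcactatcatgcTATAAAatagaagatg
Adamtsl3: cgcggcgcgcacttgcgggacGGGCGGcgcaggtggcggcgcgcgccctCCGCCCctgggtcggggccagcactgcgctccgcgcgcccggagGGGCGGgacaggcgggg
Adamtsl4: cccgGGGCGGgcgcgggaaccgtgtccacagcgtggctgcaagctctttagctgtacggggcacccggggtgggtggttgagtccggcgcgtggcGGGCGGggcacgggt
Mmp11: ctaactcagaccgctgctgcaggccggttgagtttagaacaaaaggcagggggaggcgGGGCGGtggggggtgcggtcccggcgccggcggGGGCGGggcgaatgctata
In the capitals of Mmp3, Mmp10 and Mmp13, an AP-1 match stands upstream of a TATA match: it lies 46 to 40 bases before the start in Mmp3, 63 to 57 in Mmp10 and 35 to 29 in Mmp13. The other 3 windows hold GC boxes in place of both motifs, and CCGCCC in the Adamtsl3 window is a GC box on the opposite strand. A match of letters is a description of the window and does not show binding.

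Several features of the arrays bear on what follows. The 6 EPF and ENF arrays correlated with each other at r of 0.962 to 0.988 over all genes and with the 12 arrays of the other groups at only 0.872 to 0.926. The age on the sample labels changes together with the array set, so that the effects of age and set cannot be told apart, and values were tested only within each set. The 3 Dorsal arrays differed among themselves, and each correlated over all genes with the other 2 at a mean r of 0.956 (Dorsal 1), 0.971 (Dorsal 2) and 0.960 (Dorsal 3), below every array of the other site groups. The mean of 4 adipocyte markers was 10.53, 8.65 and 9.80 in Dorsal 1, 2 and 3, highest in Dorsal 1 and lowest in Dorsal 2. The mean of 8 fibroblast markers was 11.77, 11.82 and 12.70 on the same arrays, so that in this list Dorsal 3 was the one apart. In Ventral it was 11.03 in Ventral 1 and 12.10 and 12.09 in Ventral 2 and 3. Over all 18 arrays the fibroblast markers averaged 11.03 to 13.54, far above the array medians of 5.19 to 5.32, and the 12 macrophage and leukocyte markers averaged 4.41 to 5.24. The 10 keratinocyte markers averaged 5.31 to 8.39 in EPF and 7.82 to 10.001 in ENF, and 4.97 to 5.42 in the other groups.

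Values of some genes of the sort gate went against it. Tek, which codes for Tie2, read 9.45 to 10.84 on the EPF and ENF arrays and 3.61 to 4.40 on the site arrays. Epcam read 7.47 to 9.25 over all arrays in its brighter probe set, and in the other 4.33 to 7.40 in EPF, 6.42 to 10.09 in ENF and 4.26 to 6.08 at the sites. Pecam1 (CD31) and Ptprc (CD45) stayed at 4.27 or below on every array. Their part in the values below was not tested.

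Of the 42 members, 23 exceeded the median of the array's genes on all 18 arrays, 9 on some arrays and 10 on none. Those above it everywhere include Mmp2 (gelatinase A), Mmp14 (the membrane-bound activator of Mmp2), Mmp3 (stromelysin-1), Timp1, Timp2 and Timp3, and the aggrecan- and versican-cleaving Adamts1, Adamts4 and Adamts5. The 10 below it everywhere are Adamts3, Adamts18, Adamts19, Adamts20, Mmp1a, Mmp1b, Mmp8, Mmp12, Mmp20 and Timp4. Of these, Adamts19, Mmp1a, Mmp1b and Mmp20 lay at or below the lower quartile of every array (3.93 to 4.10), where an array intensity does not tell a low level from none. Of the collagenases Mmp1a, Mmp1b, Mmp8 and Mmp13, only Mmp1a and Mmp1b thus lay at that level on every array. Mmp8, below the median everywhere, was at or below the lower quartile on 1 of 18 arrays. Mmp13 was at or below it on 7 and above the median on 6.

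**Figure D1:**
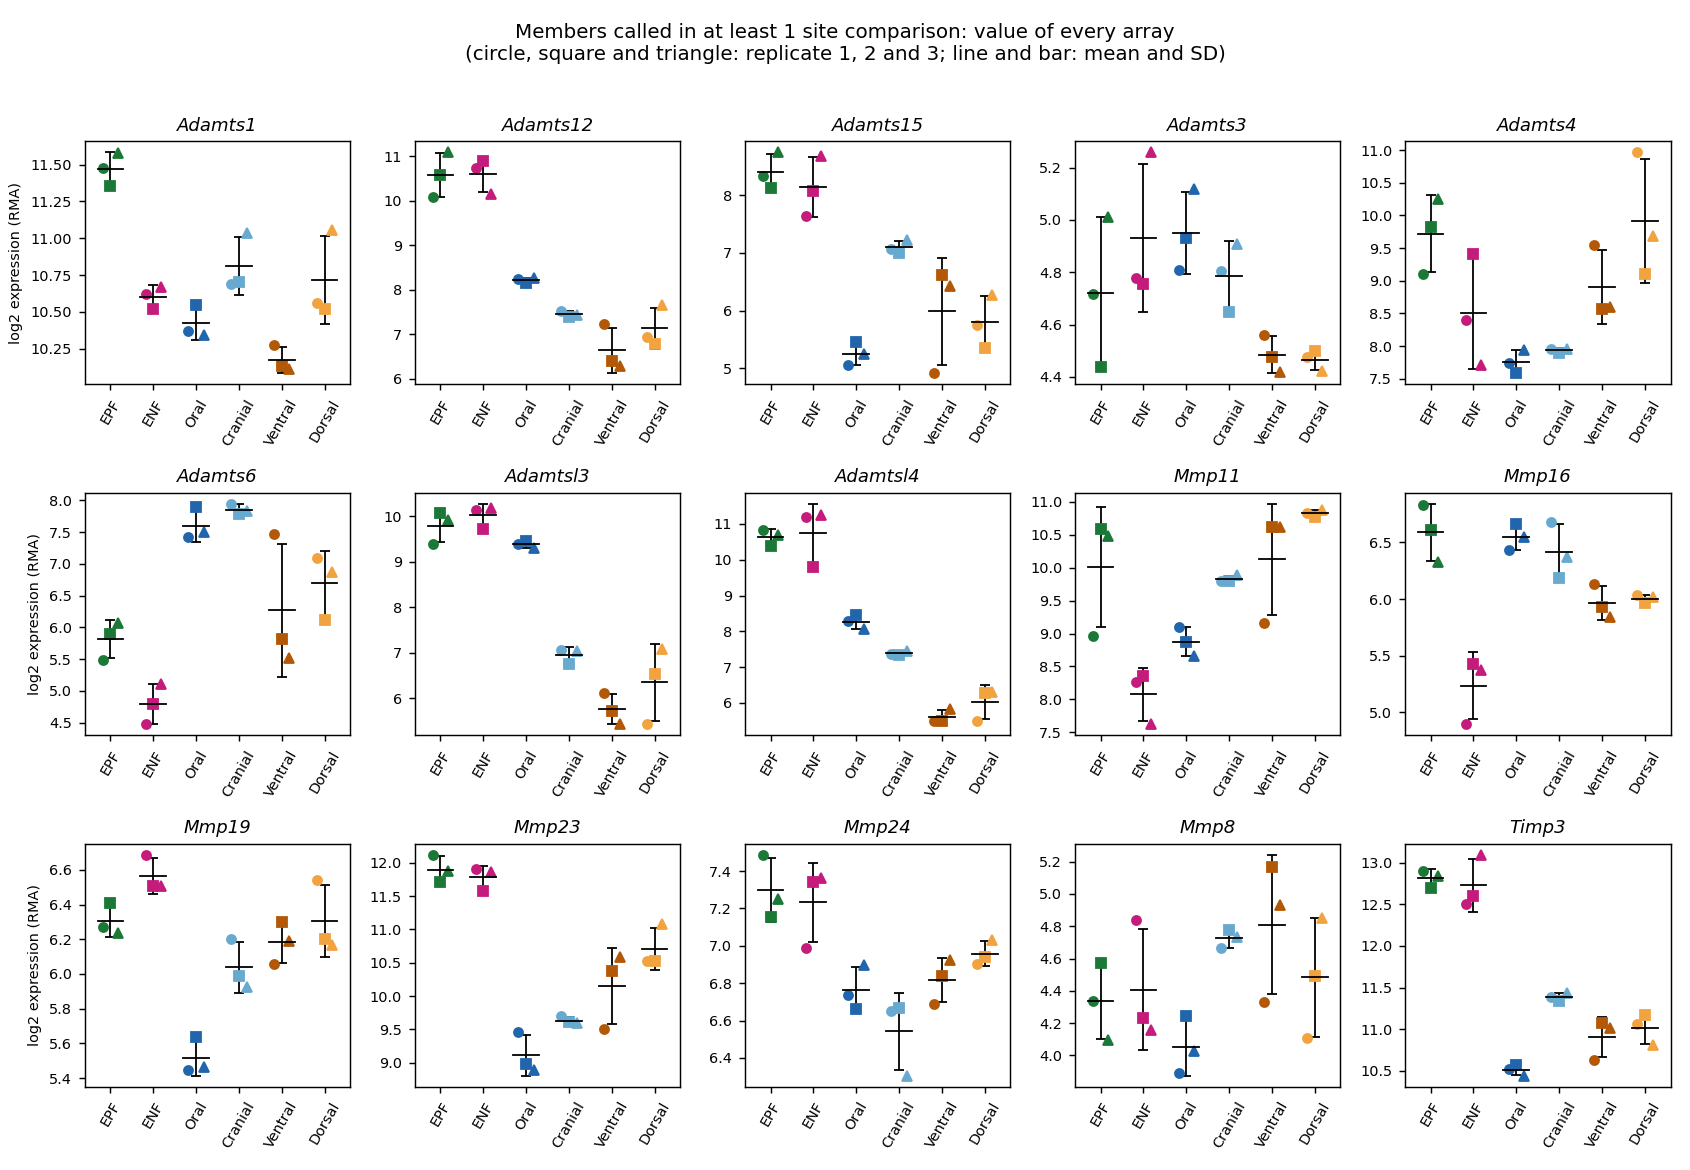
Log2 RMA intensity (vertical axis) of each member called in at least 1 site comparison, by group. Circle, square and triangle are replicates 1, 2 and 3, and the line and bar are mean and SD. Adamtsl3 and Adamtsl4 are higher in Oral than in Ventral and Dorsal, and the Mmp11 and Mmp23 points of Oral lie below those of Dorsal.

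Within back dermis, no member was called different between EPF and ENF, where 0.308% of all genes were called (adjusted p under 0.05, limma with Benjamini-Hochberg adjustment over all 18193 genes). The differences nonetheless ran mostly one way. At an unadjusted p under 0.05, 9 members were higher in EPF and 0 lower, against 5.97% and 4.84% of all genes, and the median difference was 0.12 over the members and 0.00 over all genes. In 11 members (26.2%) all 3 EPF arrays lay above all 3 ENF arrays, against 8.7% of all genes, and in 1, Mmp19, below them, against 8.34%. Among the 11, Adamts18, Mmp12 and Mmp13 were below the array median on every EPF and ENF array.

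Mmp11 (stromelysin-3), an MMP known from tumour stroma that is activated inside the cell by furin, read 8.96, 10.59 and 10.49 in EPF and 8.26, 8.36 and 7.62 in ENF. All EPF arrays were above all ENF arrays, but EPF 1 was much lower than EPF 2 and 3. The difference was 1.93 ± 0.44 (SE; adjusted p = 0.165, limma), and without EPF 1 it was 2.46 with an adjusted p of 0.0312. Mmp11 was called in 2 of 13 alternatives, with differences of 1.64 to 2.46 and adjusted p up to 0.489 (limma). Mmp16, a membrane-type MMP, read 6.83, 6.61 and 6.33 in EPF and 4.89, 5.43 and 5.38 in ENF, a difference of 1.36 ± 0.21 (adjusted p = 0.0615). It was the member nearest to the threshold, without overlap of the groups. With an intensity trend and robust variance in limma its adjusted p was 0.0475, the only call of a member in that setting. Mmp16 was called in 2 of 12 alternatives, with differences down to 0.76 and adjusted p up to 0.273 (limma). With the mean of its 4 probe sets it was not called.

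Adamts1, a protease of versican and aggrecan, read 11.48, 11.35 and 11.58 in EPF and 10.62, 10.52 and 10.67 in ENF. The arrays of each group lay close together and the groups were apart by 0.87 ± 0.15 (adjusted p = 0.0758, limma). Adamtsl2, a binding partner of fibrillin and of the latent TGF-beta complex, read 8.62, 8.51 and 9.14 in EPF and 7.78, 7.46 and 7.19 in ENF, a difference of 1.28 ± 0.23 (adjusted p = 0.0888). Adamts4, an aggrecanase, read 9.10, 9.82 and 10.25 in EPF and 8.39, 9.41 and 7.71 in ENF, and here the groups overlapped, with ENF 2 above EPF 1. Adamts6, Mmp13, Adamts10 and Mmp14 were the other 4 at an unadjusted p under 0.05, by 1.03 ± 0.23, 0.88 ± 0.19, 0.63 ± 0.26 and 0.38 ± 0.16 (adjusted p = 0.151, 0.151, 0.431 and 0.461, limma). Mmp13 read 4.14, 3.77 and 4.39 in EPF and 3.34, 3.21 and 3.10 in ENF, near the lower quartile of the arrays, so its difference is one between background-level values. When all 18 arrays shared one estimate of spread, 4 members were called (9.52%, against 2.53% of all genes), all higher in EPF: Adamts1, Adamtsl2, Mmp11 and Mmp16.

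The gelatinase Mmp2, its activator Mmp14, Mmp3, the TIMPs and Adamts5 differed between the fractions by at most 0.45 in the group means of their brightest probe sets, and none was called. Mmp2 read 14.17, 14.17 and 14.09 in EPF and 14.01, 13.60 and 13.91 in ENF, all EPF arrays above all ENF arrays, with a difference of 0.30 ± 0.16 that was not called (adjusted p = 0.566, limma). Mmp14 read 12.61, 12.86 and 12.91 in EPF and 12.27, 12.44 and 12.55 in ENF, again without overlap, and its other 2 probe sets were higher in EPF by 0.56 and 0.57. Mmp3 read 12.43, 12.62 and 12.53 in EPF and 12.78, 12.47 and 12.31 in ENF, with overlap, and the 95% interval of its difference was -0.39 to 0.41. Among the inhibitors, Timp1 read 8.45, 9.76 and 9.70 in EPF and 8.92, 8.98 and 8.66 in ENF, where EPF 1 lay below every ENF array. Timp2 read 13.69, 13.75 and 13.67 in EPF and 13.70, 13.30 and 13.76 in ENF. Timp3 read 12.90, 12.70 and 12.84 in EPF and 12.51, 12.60 and 13.09 in ENF. The fractions overlapped in both inhibitors, and the 95% intervals of the differences were -0.28 to 0.52 in Timp2 and -0.37 to 0.53 in Timp3. Timp4 read 4.74, 4.84 and 4.92 in EPF and 4.51, 4.72 and 5.14 in ENF, below the array medians. A second, dimmer probe set of Timp4 averaged 5.14 in EPF and 3.70 in ENF, a difference of 1.44 that was not called (adjusted p = 0.223). Adamts5, the other main aggrecanase of mice, read 12.27, 12.36 and 12.74 in EPF and 13.01, 12.60 and 12.64 in ENF (difference -0.30 ± 0.19).

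Markers of other cells moved between these fractions. The mean of 9 mural cell markers was 9.25 to 9.32 in EPF and 7.52 to 7.70 in ENF, with 4 of 9 called higher in EPF (Acta2, Myh11, Actg2 and Cnn1), and 8 skeletal muscle markers averaged 4.41 to 4.70 in EPF and 5.73 to 6.73 in ENF. The keratinocyte markers were given above. Their part in the differences of Mmp11, Mmp16, Adamts1 and Adamtsl2 was not tested, and in such bulk samples fewer cells of a type and less RNA per cell cannot be told apart.

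**Figure D2:**
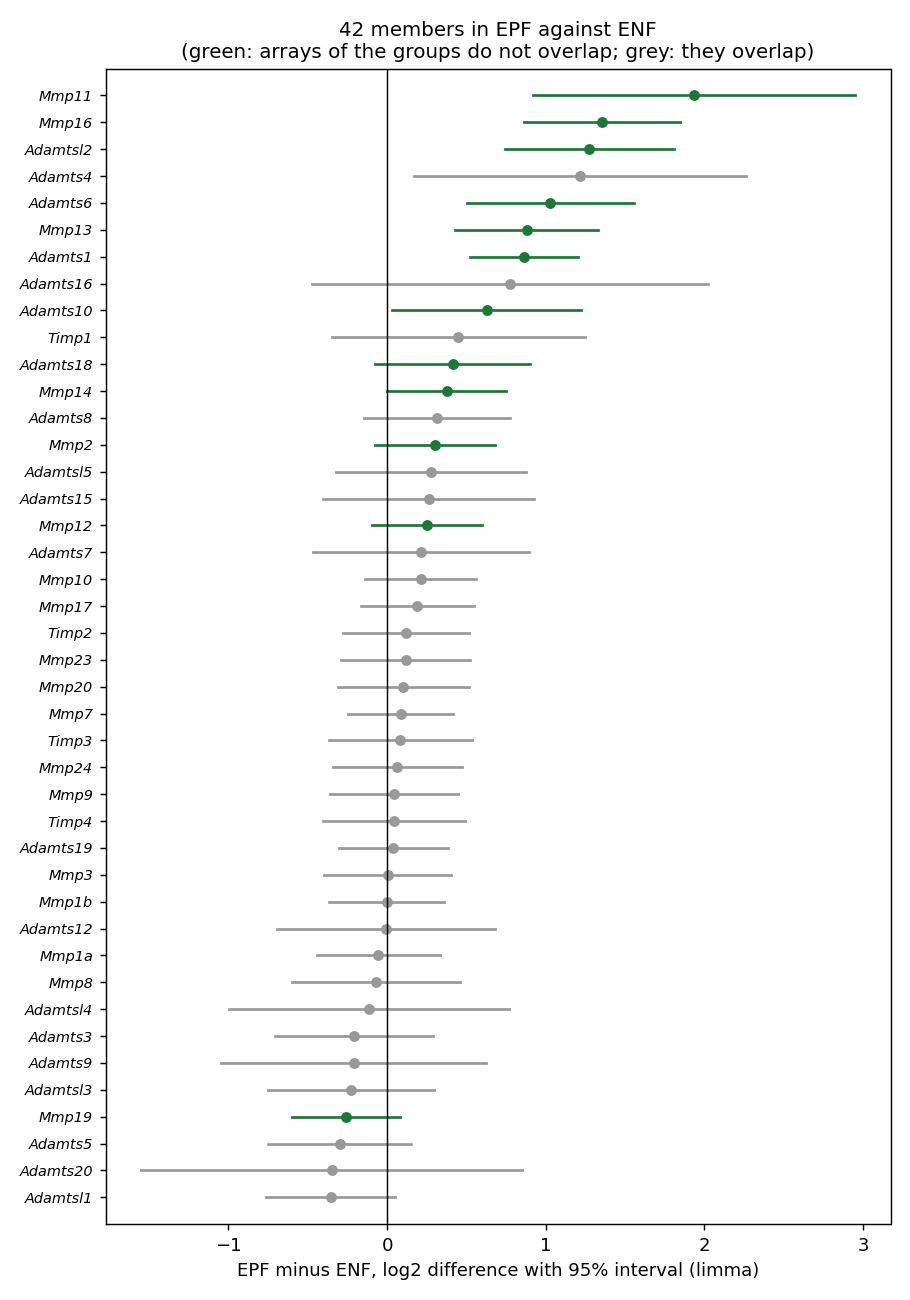
Difference EPF minus ENF (log2, horizontal axis) of each of the 42 members, with its 95% interval from limma, 3 arrays a group. Green members have no overlap between the groups' arrays. No member passed adjusted p under 0.05, and Mmp11 is at the top with 1.93.

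Between the sites of neural crest origin, Oral differed from Cranial in 3 members (7.14%, against 1.14% of all genes): Adamtsl3 was higher (0.407% of all genes were) and Adamts15 and Timp3 were lower in Oral (0.731% were). Adamtsl3, a matrix protein without protease activity, read 9.39, 9.45 and 9.31 in Oral and 7.06, 6.76 and 7.04 in Cranial. The groups were far apart, by 2.43 ± 0.33 or 5.38-fold (adjusted p = 0.00363, limma), and the call held in 14 of 14 alternative settings. Timp3, the matrix-bound inhibitor of MMPs and ADAMTS proteases, read 10.52, 10.58 and 10.44 in Oral and 11.39, 11.34 and 11.43 in Cranial, 1.84-fold lower in Oral (difference -0.88 ± 0.14, adjusted p = 0.00883). Its other 3 probe sets were also lower in Oral, by 0.54 to 0.68, and none of them was called. The call was lost without Oral 3, Cranial 1 or Cranial 3 (adjusted p = 0.0525 to 0.0577). Adamts15, a protease of versican and aggrecan, read 5.06, 5.47 and 5.25 in Oral and 7.07, 6.996 and 7.22 in Cranial, 3.57-fold lower in Oral. Its adjusted p of 0.0499 was just inside the threshold, and the call was lost without Oral 1, Oral 2, Oral 3, Cranial 1, Cranial 2 or Cranial 3 (adjusted p = 0.139 to 0.229).

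The spread in that fit came from all 12 site arrays, and the median SD of the members was 0.15 in Oral and 0.09 in Cranial but 0.26 in Ventral and 0.35 in Dorsal. When Oral and Cranial were fitted on their own 6 arrays, 13 members were called (31%, against 9.87% of all genes), 3 higher and 10 lower in Oral. In 14 members all Oral arrays lay below all Cranial arrays (12.6% of all genes did) and in 4 above (13.3%), while the median difference was -0.11 over the members and 0.04 over all genes. The 10 called on these 6 arrays and not on 12 were Adamts12 and Adamtsl4, higher in Oral, and Adamts5, Adamts16, Mmp8, Mmp9, Mmp11, Mmp13, Mmp19 and Mmp23, lower in Oral. Mmp13 (collagenase-3), the main interstitial collagenase of mice, read 4.15, 4.41 and 4.26 in Oral and 6.61, 6.38 and 7.09 in Cranial. Oral was near background on every array and Cranial above the median, and the difference of -2.42 ± 0.72 was not called over 12 arrays (adjusted p = 0.222) but had an adjusted p of 3.29e-08 over 6 (limma). Mmp9 (gelatinase B) read 5.75, 5.62 and 5.70 in Oral and 6.91, 6.87 and 6.85 in Cranial, also without overlap (difference -1.18 ± 0.60, adjusted p = 0.700, over 12 arrays). Mmp11 read 9.10, 8.88 and 8.65 in Oral and 9.80, 9.79 and 9.89 in Cranial, all Oral arrays below all Cranial arrays (difference -0.95 ± 0.32, adjusted p = 0.316).

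Mmp2, Mmp3, Mmp14, Timp1 and Timp2 overlapped between these sites and were called neither on 12 nor on 6 arrays. Mmp2 read 12.84, 12.68 and 12.41 in Oral and 12.51, 12.46 and 12.82 in Cranial. Mmp14 read 12.40, 12.38 and 12.02 in Oral and 12.20, 12.27 and 12.50 in Cranial. Mmp3 read 9.21, 9.25 and 8.99 in Oral and 9.25, 9.34 and 9.43 in Cranial, and here only Oral 2 reached the lowest Cranial array. Timp1, the inhibitor that cytokines induce most readily, read 11.56, 11.43 and 11.13 in Oral and 11.38, 11.39 and 11.49 in Cranial. Timp2, which also takes part in the activation of Mmp2 by Mmp14, read 12.07, 11.95 and 11.73 in Oral and 11.88, 11.89 and 11.94 in Cranial. The 95% intervals of the differences were -0.55 to 0.46 in Timp1 and -0.32 to 0.35 in Timp2. Whether Timp3 differed more than the other TIMPs was not tested. The fibroblast markers averaged 11.52 to 11.74 in Oral and 12.22 to 12.56 in Cranial, with Dcn called lower in Oral, and their part in these values was not tested.

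Between Ventral and Dorsal no member was called, against 0.0275% of all genes (limma). At an unadjusted p under 0.05, 1 member was higher in Ventral and 3 lower, against 3.48% and 5.07% of all genes. The lower ones were the aggrecanases Adamts1, Adamts4 and Adamts5. Adamts4 read 9.55, 8.56 and 8.60 in Ventral and 10.97, 9.11 and 9.68 in Dorsal, with Ventral 1 above Dorsal 2, a difference of -1.02 ± 0.40 (adjusted p = 0.557). Adamts1 read 10.28, 10.13 and 10.11 in Ventral and 10.56, 10.52 and 11.06 in Dorsal, and every Ventral array was below every Dorsal array (-0.54 ± 0.16, adjusted p = 0.477). Adamts5 read 9.91, 10.40 and 10.36 in Ventral and 10.42, 10.61 and 11.60 in Dorsal, again without overlap. Its difference of -0.66 ± 0.26 rests in part on Dorsal 3, which was the highest of the 6 arrays. Adamts9, which also cleaves versican and aggrecan, was the higher one, by 0.39 ± 0.17 (adjusted p = 0.569).

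In these groups single arrays set several values. Mmp9 read 8.99, 6.90 and 6.68 in Ventral and 8.60, 6.39 and 7.37 in Dorsal, so that Ventral 1 and Dorsal 1 were both more than 1 above the other arrays of their group. Mmp10 (stromelysin-2) was highest in the same arrays, at 6.48, 5.30 and 5.70 in Ventral and 7.21, 5.54 and 5.42 in Dorsal. Mmp3 was high in Dorsal 1 only, with 7.98, 8.67 and 8.63 in Ventral and 10.25, 7.85 and 8.28 in Dorsal. Mmp13 read 5.41, 4.03 and 3.95 in Ventral and 7.20, 6.68 and 3.82 in Dorsal, near background on Dorsal 3 and above the median on Dorsal 1 and 2. Mmp14 went the other way in Dorsal 1, with 11.98, 12.59 and 12.52 in Ventral and 10.57, 12.32 and 12.47 in Dorsal. Mmp11 was lower in Ventral 1 than in the other arrays, with 9.15, 10.61 and 10.62 in Ventral and 10.84, 10.77 and 10.88 in Dorsal. The members with an AP-1 match in their windows did not all run alike over the Dorsal arrays. Mmp3, Mmp10 and Mmp13 were highest in Dorsal 1, Mmp7 was lowest there (5.20, 5.85 and 5.53 in Dorsal), and Mmp1a, Mmp1b, Mmp12 and Mmp20 were below the median of every array. The 12 dissociation and immediate early genes, Fos and Jun genes among them, averaged 8.87, 9.40 and 9.79 in Dorsal 1, 2 and 3, lowest in Dorsal 1. In Ventral 1, 2 and 3 they averaged 9.71, 9.36 and 9.37, highest in Ventral 1. Single genes of the list differed: Fos was lowest in Dorsal 3 (11.13, 12.10 and 10.22) and Jun in Dorsal 1 (8.25, 9.25 and 9.10). The part of these genes in the values of the members was not tested. When Ventral 1 and Dorsal 1 were left out, a setting chosen after seeing the data, 2 members were called (4.76%, against 0.973% of all genes): Adamtsl5 was higher and Adamtsl3 lower in Ventral.

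**Figure D3:**
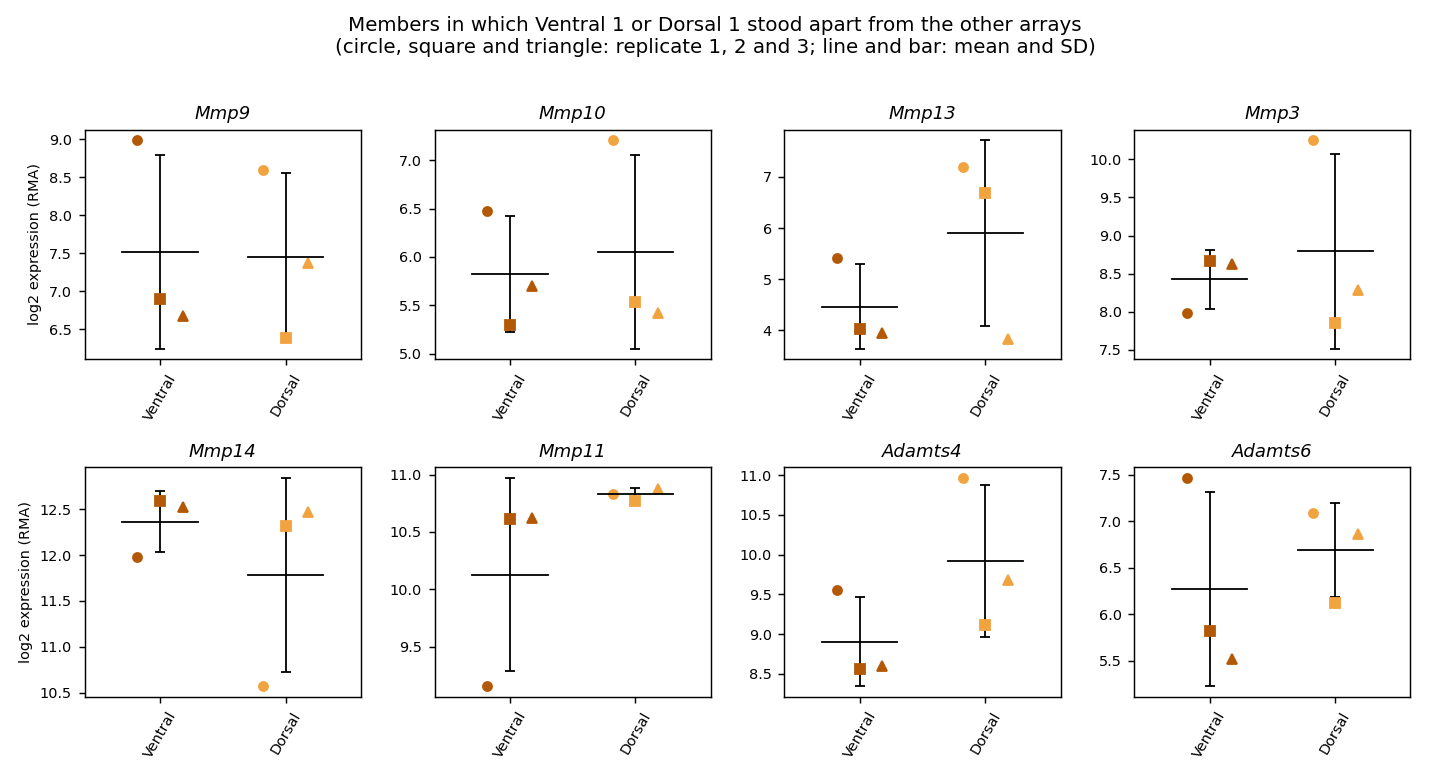
Log2 RMA intensity (vertical axis) of 8 members on the Ventral and Dorsal arrays. Circle, square and triangle are replicates 1, 2 and 3, and the line and bar are mean and SD. The circles of both groups lie above the other points of their group in Mmp9 and Mmp10, and the Dorsal circle lies lowest in Mmp14.

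Oral and Cranial were also set against the trunk sites. The Cre line (Wnt1Cre against En1Cre) changes together with the site in these comparisons, and the effect of one cannot be told apart from that of the other. Oral against Dorsal gave 10 called members (23.8%, against 16.8% of all genes), 5 higher and 5 lower, where 10.5% of all genes were higher and 6.3% lower. Oral against Ventral gave 9 (21.4%, against 14.6%), 5 higher and 4 lower, where 10.3% and 4.31% of all genes were. Cranial against Dorsal gave 5 (11.9%, against 18.7%), 2 higher and 3 lower, where 11.2% and 7.45% were. Cranial against Ventral gave 6 (14.3%, against 17.9%), 6 higher and 0 lower, where 11.7% and 6.2% were. In this fit the total shares of members called for Cranial against the trunk sites were thus below those of all genes. The share called higher in Cranial than in Ventral was above that of all genes, and whether such shares differ was not tested. The comparisons share arrays, and their values are given side by side. In all of them genes of dissociation and immediate early response moved: their mean was 10.30 to 10.50 in Oral and 10.48 to 10.73 in Cranial, against 9.36 to 9.71 in Ventral and 8.87 to 9.79 in Dorsal. Of these 12 genes, 9 were called higher in Cranial than in Dorsal, 7 in Oral than in Dorsal, 6 in Oral than in Ventral and 7 in Cranial than in Ventral. The adipocyte markers averaged 7.19 to 7.26 in Oral and 7.73 to 8.01 in Cranial, against 8.15 to 9.50 in Ventral and 8.65 to 10.53 in Dorsal. The part of either list in the differences below was not tested.

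The ADAMTS-like proteins gave the largest called differences among the members. Adamtsl4, which binds fibrillin-1 and is known for its role in the zonular fibres of the eye, read 8.29, 8.46 and 8.06 in Oral and 7.38, 7.33 and 7.46 in Cranial, against 5.48, 5.49 and 5.84 in Ventral and 5.49, 6.27 and 6.32 in Dorsal. Among the site groups Oral was highest and Cranial next, and neither overlapped the trunk sites. In the other array set, not tested against the sites, Adamtsl4 read higher still, at 10.83, 10.38 and 10.69 in EPF and 11.18, 9.80 and 11.25 in ENF. It was higher in Oral by 2.66 ± 0.21 than in Ventral (6.34-fold, adjusted p = 1.81e-05, limma) and by 2.24 ± 0.21 than in Dorsal (4.72-fold, adjusted p = 6.99e-05). It was higher in Cranial by 1.79 ± 0.21 than in Ventral (adjusted p = 0.000347) and by 1.36 ± 0.21 than in Dorsal (adjusted p = 0.00162). These 4 calls held in all 15 alternative settings. Between Oral and Cranial its difference of 0.88 ± 0.21 was not called (adjusted p = 0.0899).

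Adamtsl3 read 6.10, 5.72 and 5.44 in Ventral and 5.43, 6.54 and 7.08 in Dorsal, below the Oral values given above on every array. In the other array set, which was not tested against the sites, it read 9.40, 10.06 and 9.92 in EPF and 10.15, 9.73 and 10.19 in ENF. A high level was thus not particular to Oral over all 6 groups. Oral was higher by 3.63 ± 0.33 than Ventral (12.4-fold, adjusted p = 6.25e-05) and by 3.03 ± 0.33 than Dorsal (8.19-fold, adjusted p = 0.000205), and both calls held in every alternative. Cranial was nearer to the trunk sites, higher by 1.20 ± 0.33 than Ventral (adjusted p = 0.0309) and overlapping Dorsal, where Dorsal 3 exceeded all Cranial arrays. The call against Ventral was lost without Cranial 1, Cranial 2, Cranial 3, Ventral 2 or Ventral 3 (adjusted p = 0.0589 to 0.103). The other ADAMTS-like proteins were not called in any comparison of sites by their brightest probe sets. Adamtsl1 averaged 5.79 ± 0.23 in Oral, 5.73 ± 0.09 in Cranial, 5.42 ± 0.14 in Ventral and 5.56 ± 0.60 in Dorsal (SD, n = 3 each). Another probe set of Adamtsl1 was called higher than in Ventral, by 1.01 in Oral and 0.96 in Cranial (adjusted p = 0.00440 and 0.00549), one more by 0.75 in Cranial (adjusted p = 0.0350), and with the mean of all probe sets the gene was called higher in Cranial than in Ventral. Adamtsl2 averaged 7.25 ± 0.18 in Oral, 7.39 ± 0.18 in Cranial, 7.66 ± 0.35 in Ventral and 7.82 ± 0.40 in Dorsal. Adamtsl5 averaged 6.86 ± 0.10 in Oral, 7.19 ± 0.05 in Cranial, 7.21 ± 1.02 in Ventral and 7.30 ± 0.20 in Dorsal. Its Ventral values were 6.04, 7.80 and 7.80, with Ventral 1 far below the others. A second probe set of Adamtsl5 was called higher in Cranial than in Dorsal by 0.60 (adjusted p = 0.00416), where the brighter one gave -0.12.

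Among the ADAMTS proteases, Adamts4 was lower at the head sites than in Dorsal. It read 7.74, 7.59 and 7.94 in Oral and 7.95, 7.89 and 7.96 in Cranial, below every Dorsal and Ventral array given above. It was 4.46-fold lower in Oral than in Dorsal (difference -2.16 ± 0.40, adjusted p = 0.00436, limma) and 3.96-fold lower in Cranial than in Dorsal (-1.99 ± 0.40, adjusted p = 0.00703). Against Ventral the differences of -1.14 ± 0.40 and -0.97 ± 0.40 were not called. A second probe set of Adamts4 was also lower in Oral than in Dorsal, by 1.37 (adjusted p = 0.0244), and in Cranial by 0.97 (adjusted p = 0.0857).

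Adamts12, known for cleaving cartilage oligomeric matrix protein, read 8.24, 8.14 and 8.26 in Oral and 7.53, 7.39 and 7.44 in Cranial, against 7.23, 6.39 and 6.30 in Ventral and 6.94, 6.79 and 7.67 in Dorsal. Oral was above every array of the other 3 site groups, by 1.57 ± 0.26 over Ventral (adjusted p = 0.00249) and 1.08 ± 0.26 over Dorsal (adjusted p = 0.0162). The call against Dorsal was lost without Oral 1, Oral 3 or Dorsal 2 (adjusted p = 0.0512 to 0.0544), and the one against Ventral held in 15 of 15 alternatives. Against Dorsal it was also lost on 6 arrays and with the mean of both probe sets, and the lowest difference among the alternatives was 0.45. Adamts15 was higher in Cranial, at the values given above, than in Dorsal, at 5.76, 5.35 and 6.28, by 1.30 ± 0.38 (adjusted p = 0.0381), a call lost without Cranial 1, Cranial 2, Cranial 3 or Dorsal 2 (adjusted p = 0.0844 to 0.116). In Ventral it read 4.92, 6.62 and 6.42, with Ventral 1 far below the others, and Cranial against Ventral was not called (adjusted p = 0.0680).

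Adamts1 and Adamts6 were higher in Cranial than in Ventral. Adamts1 read 10.37, 10.55 and 10.34 in Oral and 10.69, 10.70 and 11.04 in Cranial, and every Cranial array exceeded every Ventral array, by 0.64 ± 0.16 (adjusted p = 0.0186, limma), a call lost without Cranial 3, Ventral 2 or Ventral 3 (adjusted p = 0.0603 to 0.0847). Adamts6, a protease with a role in fibrillin microfibrils, read 7.42, 7.90 and 7.50 in Oral and 7.95, 7.79 and 7.83 in Cranial, against 7.47, 5.82 and 5.52 in Ventral and 7.09, 6.12 and 6.87 in Dorsal. Cranial was 1.58 ± 0.43 above Ventral (adjusted p = 0.0270), although Ventral 1 came close to the Cranial arrays, and the call was lost without Cranial 1, Cranial 2, Cranial 3, Ventral 2 or Ventral 3 (adjusted p = 0.0666 to 0.0953). This call was also lost with the mean of both probe sets. Adamts3, a procollagen N-proteinase, was called higher in Oral than in Dorsal (0.49 ± 0.11, adjusted p = 0.0125) and Ventral (0.47 ± 0.11, adjusted p = 0.0166). Its values were 4.81, 4.93 and 5.12 in Oral, 4.80, 4.65 and 4.91 in Cranial, 4.56, 4.48 and 4.42 in Ventral and 4.48, 4.50 and 4.42 in Dorsal, below the median of every array. The call against Dorsal was lost without Oral 3 (adjusted p = 0.0510). The call against Ventral was lost without Oral 2, Oral 3, Ventral 2 or Ventral 3 (adjusted p = 0.0543 to 0.0647). Averaging the probe sets removed both calls, as did one joint fit of 18 arrays, and the call against Dorsal also failed on 6 arrays. Adamts3 was called in 10 of 14 alternatives against Dorsal and in 8 of 14 against Ventral, with adjusted p up to 0.116 and 0.118. The other, dimmer probe set of Adamts3 gave -0.06 against Dorsal and -0.03 against Ventral and was not called. Adamts5 read 10.06, 10.34 and 10.03 in Oral and 10.63, 10.55 and 10.70 in Cranial and was not called against either trunk site in its brightest probe set. The probe sets disagree here too: a second was lower than in Dorsal by 1.51 in Oral and 1.36 in Cranial (adjusted p = 0.00543 and 0.00944, limma over all probe sets), and another was higher than in Ventral by 0.65 in Oral and 0.96 in Cranial (adjusted p = 0.0180 and 0.00237). With the mean of all probe sets, Adamts5 was called lower in Oral than in Dorsal.

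Among the MMPs, 3 fell in Oral against both trunk sites: Mmp11, Mmp19 and Mmp23. Mmp11 was 3.87-fold lower in Oral than in Dorsal (difference -1.95 ± 0.32, adjusted p = 0.00207, limma; called in 15 of 15 alternatives) and 2.38-fold lower than in Ventral (-1.25 ± 0.32, adjusted p = 0.0227). Cranial lay between Oral and Dorsal without overlap of either, and Ventral 1, at 9.15, was only just above the highest Oral array. The call against Ventral was lost without Oral 2, Oral 3, Ventral 2 or Ventral 3 (adjusted p = 0.0736 to 0.0919).

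Mmp23, an MMP with a membrane anchor at its start that is cut off as it leaves the cell, read 9.46, 8.98 and 8.89 in Oral and 9.69, 9.60 and 9.60 in Cranial, against 9.51, 10.38 and 10.58 in Ventral and 10.52, 10.52 and 11.08 in Dorsal. Among the site groups Dorsal was highest, and Ventral 1 was close to the Oral and Cranial arrays. Mmp23 read 11.58 to 12.12 on the EPF and ENF arrays, which were not tested against the sites. Against Dorsal it was lower in Oral by 1.60 ± 0.27 (adjusted p = 0.00240) and in Cranial by 1.08 ± 0.27 (adjusted p = 0.0187), and against Ventral lower in Oral by 1.05 ± 0.27 (adjusted p = 0.0232). The Cranial call was lost without Cranial 1, Cranial 2 or Cranial 3 (adjusted p = 0.0566 to 0.0632) and the call against Ventral without Oral 2, Oral 3, Ventral 2 or Ventral 3 (adjusted p = 0.0872 to 0.0927). A second probe set gave -1.04 for Oral against Dorsal (adjusted p = 0.00804) and was not called in the other 2 comparisons (-0.43 and -0.52).

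Mmp19, an MMP of many matrix substrates, read 5.45, 5.64 and 5.47 in Oral and 6.20, 5.99 and 5.92 in Cranial, against 6.06, 6.30 and 6.19 in Ventral and 6.54, 6.20 and 6.17 in Dorsal. Every Oral array was below every array of the other 3 site groups, by 0.79 ± 0.13 against Dorsal (adjusted p = 0.00241) and 0.67 ± 0.13 against Ventral (adjusted p = 0.00664, limma). Its second, dimmer probe set gave -0.21 and -0.13 and was not called, and with the mean of both probe sets neither difference was called (adjusted p = 0.051 and 0.118). Mmp8, the neutrophil collagenase, was called lower in Oral than in Ventral by 0.76 ± 0.22 (adjusted p = 0.0449), with 3.89, 4.25 and 4.03 in Oral and 4.33, 5.17 and 4.93 in Ventral, all below the array medians. That call was lost without Oral 1, Oral 2, Oral 3, Ventral 2 or Ventral 3 (adjusted p = 0.0750 to 0.161), and 3 neutrophil markers averaged 3.98 to 4.26 in Oral and 4.03 to 4.29 in Ventral.

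Of the membrane-type MMPs, Mmp16 was called higher in Oral than at both trunk sites and in Cranial than in Ventral, and Mmp24 lower in Cranial than in Dorsal. Mmp16 read 6.43, 6.66 and 6.55 in Oral and 6.68, 6.19 and 6.37 in Cranial, against 6.13, 5.93 and 5.84 in Ventral and 6.03, 5.96 and 6.01 in Dorsal. It was higher in Oral by 0.58 ± 0.14 than in Ventral and 0.54 ± 0.14 than in Dorsal, and in Cranial by 0.45 ± 0.14 than in Ventral (adjusted p = 0.0159, 0.0196 and 0.0435, limma). A second probe set of Mmp16 gave larger differences of 1.48, 1.62 and 1.13, all called, while the other 2 probe sets gave -0.40 to 0.13 and no call. The call against Ventral was lost without Oral 2, Ventral 2 or Ventral 3 (adjusted p = 0.0579 to 0.0719) for Oral and without Cranial 1, Cranial 3, Ventral 2 or Ventral 3 (adjusted p = 0.103 to 0.161) for Cranial, and the call of Oral against Dorsal without Oral 2 or Oral 3 (adjusted p = 0.0585 to 0.0823). Mmp24, a membrane-type MMP best known from neurons, was called lower in Cranial than in Dorsal, by 0.42 ± 0.12 (adjusted p = 0.0408), with 6.65, 6.67 and 6.31 in Cranial and 6.90, 6.94 and 7.03 in Dorsal. It was called in only 5 of 15 alternatives, with adjusted p up to 0.153 without Cranial 3. Another probe set of Mmp24 was called lower than in Dorsal by 0.42 in Cranial and 0.45 in Oral, and than in Ventral by 0.36 in Oral. Mmp14, at the values given above, was not called in any comparison of sites, and neither was Mmp17, at 7.25 ± 0.24 in Oral, 7.21 ± 0.18 in Cranial, 7.03 ± 0.37 in Ventral and 6.97 ± 0.29 in Dorsal (SD, n = 3 each).

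Of the 4 TIMPs, Timp3 was the one called. It read 10.63, 11.07 and 11.02 in Ventral and 11.07, 11.17 and 10.81 in Dorsal, between the Oral and Cranial values given above. It was lower in Oral than in Dorsal by 0.50 ± 0.14 (adjusted p = 0.0284, limma) and higher in Cranial than in Ventral by 0.48 ± 0.14 (adjusted p = 0.0326). The probe sets disagree here. For Oral against Dorsal, 1 other gave -1.06 (adjusted p = 0.00339) and the remaining 2 gave 0.12 and 0.18. For Cranial against Ventral, 2 others were called higher, by 0.66 and 0.88, and 1 gave 0.07. The calls were also lost without Oral 1, Oral 2, Oral 3 or Dorsal 2 (adjusted p = 0.0661 to 0.0917) for Oral and without Cranial 1, Cranial 2, Cranial 3, Ventral 1 or Ventral 3 (adjusted p = 0.0517 to 0.108) for Cranial. They held in 7 of 15 alternatives for Oral against Dorsal and in 6 of 15 for Cranial against Ventral. Timp1 read 11.55, 11.43 and 11.40 in Ventral and 11.71, 10.60 and 10.98 in Dorsal. Timp2 read 12.01, 11.93 and 11.95 in Ventral and 12.54, 11.93 and 12.07 in Dorsal. Dorsal 1 was the highest of its group in both, and no difference of either inhibitor between sites was called in its brightest probe set. Another probe set of Timp2, far dimmer, was called higher in Oral and in Cranial than at both trunk sites, by 0.74 to 1.09, while the brightest one gave -0.28 to -0.04. Timp4 was 4.57 ± 0.04 in Oral, 4.56 ± 0.10 in Cranial, 4.67 ± 0.02 in Ventral and 4.85 ± 0.22 in Dorsal, below the array medians.

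**Figure D4:**
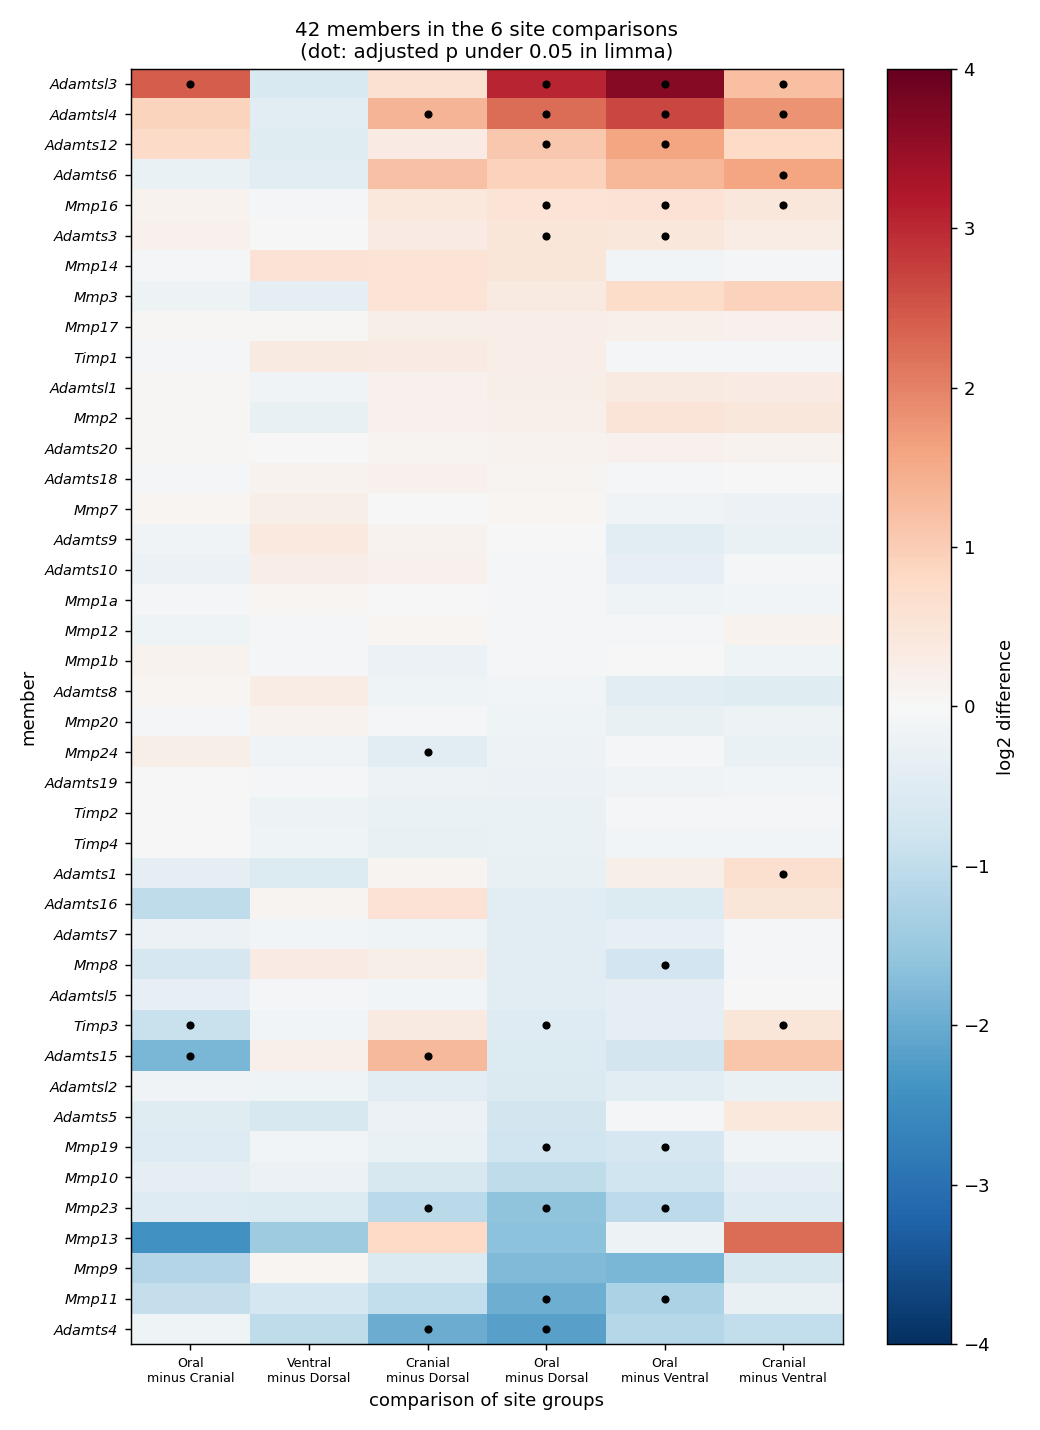
Log2 difference (colour) of each of the 42 members (rows, ordered by Oral minus Dorsal) in the 6 comparisons of sites (columns), with a dot where the adjusted p was under 0.05 in the limma fit of 12 arrays. Adamtsl3 and Adamtsl4 are the reddest in Oral minus Ventral, at 3.63 and 2.66, and Adamts4 stands last, at -2.16 in Oral minus Dorsal. Mmp13 has strong colours without dots.

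Mmp2 and Mmp3 were not called between any sites. Mmp2 read 11.65, 12.42 and 12.34 in Ventral and 12.24, 12.11 and 12.93 in Dorsal, so that Oral at 12.64 ± 0.22 (SD, n = 3) overlapped Dorsal and, with its lowest array, Ventral (difference from Ventral 0.51 ± 0.25, adjusted p = 0.207, limma). Mmp3 was 9.15 ± 0.14 in Oral and 9.34 ± 0.09 in Cranial, above all Ventral arrays, and Dorsal 1 was above both. Its differences from Ventral were 0.73 ± 0.48 in Oral (adjusted p = 0.347) and 0.91 ± 0.48 in Cranial (adjusted p = 0.203). The counts of called members depended on the arrays in the fit. Without Dorsal 1 and Ventral 1, 21 members were called for Oral against Dorsal (50%, against 35% of all genes) and 21 for Oral against Ventral (50%, against 27.6%). In the same setting 13 were called for Cranial against Dorsal (31%, against 38%) and 14 for Cranial against Ventral (33.3%, against 30.8%). Mmp3 was then called higher in Oral and in Cranial than at both trunk sites, and Mmp9 lower in Oral than at both. Leaving out Dorsal 1 alone gave 16 for Oral against Dorsal (38.1%, against 30.9% of all genes) and 10 for Cranial against Dorsal (23.8%, against 33.8%). Without Dorsal 2 the counts were 9 (21.4%, against 16.2%) and 4 (9.52%, against 16.3%), and without Dorsal 3 they were 11 (26.2%, against 17.6%) and 5 (11.9%, against 19.3%). Leaving out Ventral 1 alone gave 13 for Oral against Ventral (31%, against 12.5%) and 10 for Cranial against Ventral (23.8%, against 12.9%). Adamtsl4 and Adamtsl3 in Oral against both trunk sites, Mmp11, Mmp23 and Adamts4 in Oral against Dorsal, and Adamts12 in Oral against Ventral were called in all 15 alternatives.

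The remaining members were not called in any comparison. Adamts9 lay between 6.32 and 8.01 on the 18 arrays, Adamts8 between 5.25 and 6.29, Adamts7 between 5.11 and 7.12 and Adamts10 between 6.11 and 8.06. A second, dimmer probe set of Adamts10 was called lower in Oral and in Cranial than at both trunk sites, by 0.66 to 0.75, where the brighter one gave -0.32 to 0.17. Mmp7 (matrilysin) lay between 5.20 and 5.85 and Mmp12 (macrophage elastase) between 3.83 and 4.36. Adamts16 ranged from 4.998 to 7.85, with 7.15 ± 0.67 in EPF and 6.38 ± 1.06 in ENF, and 5.16 ± 0.22 in Oral and 6.16 ± 0.22 in Cranial. Adamts18 and Adamts20 reached at most 4.50 and 5.13.

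The EPF and ENF arrays stood apart from the 12 site arrays in many members, which is given as a description only. In 10 members (23.8%, against 8.64% of all genes) every EPF and ENF array was above every site array: Adamts5, Adamts12, Adamts15, Adamtsl1, Adamtsl4, Mmp2, Mmp3, Mmp23, Timp2 and Timp3. In 2 (4.76%, against 5.05%), Timp1 and Mmp17, every one was below. The mean differences were 4.57 in Adamtsl1, 3.87 in Adamtsl4, 3.59 in Mmp3 and 1.54 in Mmp2, and in the other direction -2.26 in Timp1. Adamtsl1, a secreted matrix protein, read 10.26, 9.80 and 9.99 in EPF and 10.44, 10.21 and 10.46 in ENF, against 5.55, 5.27 and 5.43 in Ventral and 4.94, 5.59 and 6.15 in Dorsal. EPF and Dorsal carry the same genotype, colour gate and body site on the labels, and still 18 members (42.9%, against 20.2% of all genes) were higher on all EPF arrays than on all Dorsal arrays and 6 (14.3%, against 16.3%) lower. The dissociation and immediate early genes averaged 12.95 to 13.10 in EPF and 12.56 to 12.77 in ENF, above every site array, and the fibroblast markers 13.48 to 13.54 and 13.16 to 13.29. Their part was not tested.

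**Figure D5:**
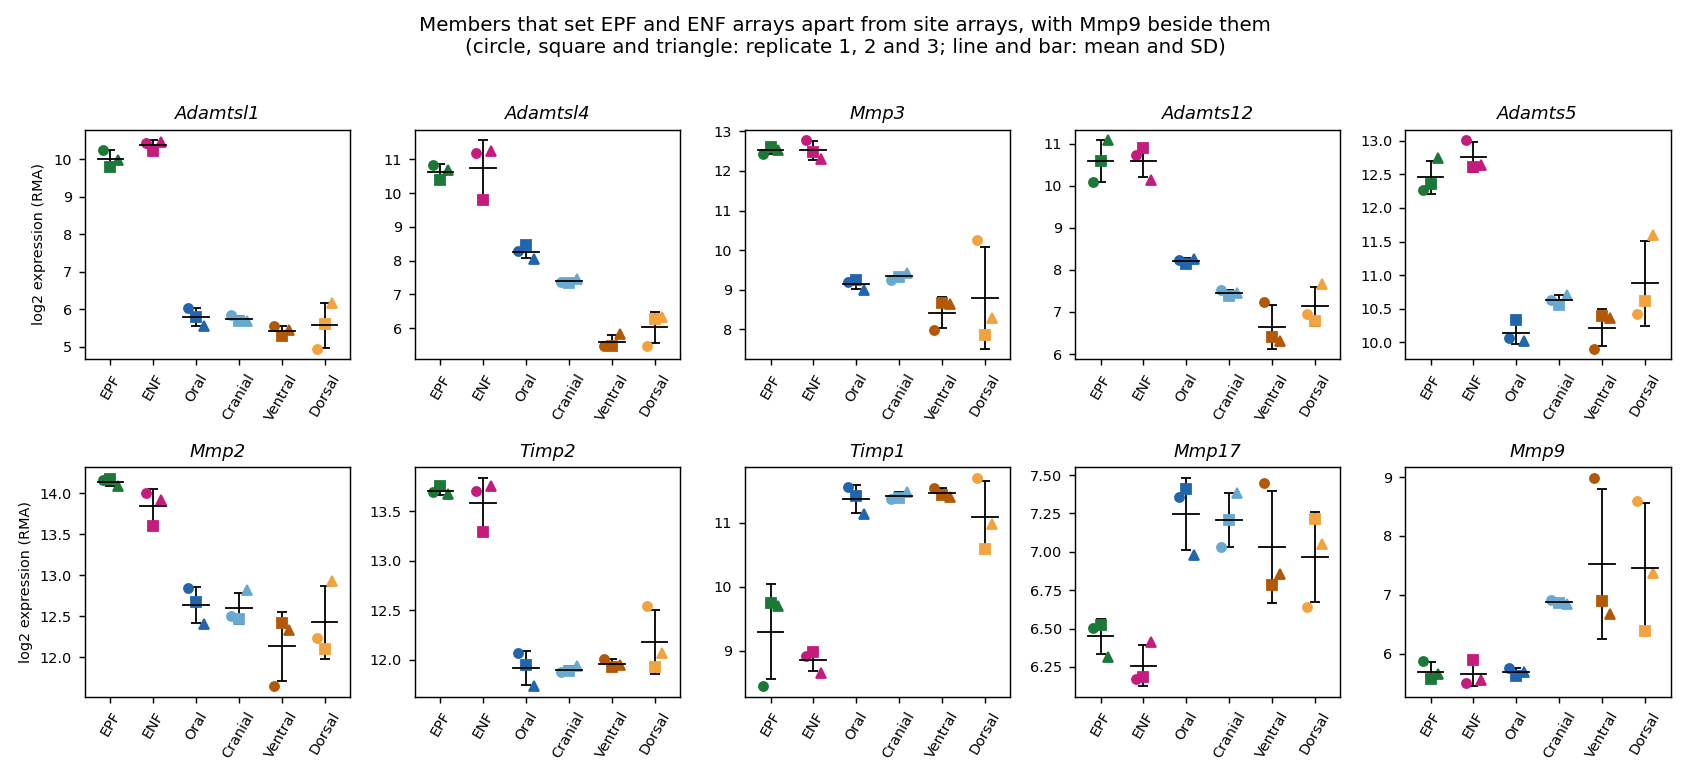
Log2 RMA intensity (vertical axis) of 10 members by group. Circle, square and triangle are replicates 1, 2 and 3, and the line and bar are mean and SD. Adamtsl1, Adamtsl4, Mmp2, Mmp3 and Timp2 are higher on every EPF and ENF array than on the site arrays, and Timp1 and Mmp17 are lower.

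Genes that act with these proteases were read from fixed lists. Of 18 measured activators, receptors and other inhibitors, 0 were called between EPF and ENF or between Ventral and Dorsal. Pcsk5, a proprotein convertase, was 3.44 ± 0.37 lower in Oral than in Cranial (adjusted p = 0.000710, limma). It read 7.82, 7.89 and 7.35 in Oral and 11.11, 11.03 and 11.25 in Cranial, and was also lower in Oral than in Ventral by 3.39 ± 0.37 and than in Dorsal by 4.14 ± 0.37. Of the same list, 3 were higher in Oral than in Dorsal (16.7%, against 10.5% of all genes) and 2 lower (11.1%, against 6.3%). In Oral against Ventral, 5 were higher (27.8%, against 10.3%) and 2 lower (11.1%, against 4.31%). In each Cranial comparison with a trunk site 4 were higher (22.2%, against 11.2% of all genes for Dorsal and 11.7% for Ventral) and 0 lower (7.45% and 6.2% of all genes were). Bsg (basigin or EMMPRIN, a surface protein known to induce MMPs) was higher in Cranial than in Dorsal by 1.36 ± 0.16 (adjusted p = 0.000338) and in Oral than in Ventral by 1.07 ± 0.16 (adjusted p = 0.00125). Plat, tissue plasminogen activator, was higher in Oral than in Ventral by 1.33 ± 0.17 (adjusted p = 0.000650) and in Cranial than in Dorsal by 0.92 ± 0.17 (adjusted p = 0.00523).

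Of 16 measured substrates, Acan (aggrecan) was higher in Oral and Cranial than at both trunk sites. It read 7.17, 6.90 and 6.87 in Oral and 7.21, 7.09 and 7.10 in Cranial, against 4.99, 5.18 and 5.67 in Ventral and 5.44, 5.21 and 5.09 in Dorsal, with differences of 1.70 to 1.88 (adjusted p = 0.000126 for Oral against Ventral and 8.02e-05 for Cranial against Dorsal, limma). Vcan (versican) was lower in Oral than in Dorsal by 1.54 ± 0.20 (adjusted p = 0.000625), and Dcn (decorin) was lower in Oral than in Cranial by 1.91 ± 0.33 (adjusted p = 0.0166). Of 19 other matrix proteases, Adam12, a membrane-bound disintegrin protease, was lower in Oral than in Dorsal by 1.01 ± 0.14 (adjusted p = 0.000909) and in Ventral by 0.86 ± 0.14 (adjusted p = 0.00255). Ctsk, a collagen-cleaving cathepsin, was also called lower in Oral than in Dorsal, and 0 of the 19 were called between EPF and ENF, between Oral and Cranial or between Ventral and Dorsal.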

How the data were processed

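Values are the authors' deposited log2 intensities of 18 Affymetrix arrays. Per the series' design text in the labels, they were normalized by RMA and quantile normalization in R, and the version is not given in the sources used here. Of 45037 probe sets without controls, 34945 name 1 gene by the platform annotation, 932 several and 9160 none. One probe set a gene, the one with the highest mean, gave 18193 genes. EPF and ENF were fitted on 6 arrays and the 4 sites together on 12 (limma 3.58.1, R 4.3.3, lmFit and eBayes), p-values were adjusted by Benjamini-Hochberg across the 18193 genes, and calls were made under 0.05. Values per array were given, though not in every group, for every called member and for Mmp2, Mmp3, Mmp9, Mmp11, Mmp13, Mmp14, the TIMPs, Adamts1 and Adamts5. Members and lists were chosen with earlier results of these data known. The number of arrays limits the precision. Alternatives were a replicate block, other arrays in the fit, a filter on dim genes (above the array's median in at least 3 arrays fitted), an intensity trend, probe set means, quantile normalization again, array weights and leaving out arrays.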

Additional observations from a re-analysis of the deposited data

How the results depend on the processing

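Of 33 member differences called in the reported fits, 375 repeats under an alternative kept the call and its direction, 112 lost the call and 0 turned. The losses given above for single members are mostly those without a single array, and several of these calls were also lost in other alternatives. Of 21 named differences not called, 262 repeats stayed uncalled, 21 became called and 0 turned. Counts of called members that moved beyond 1.5 times were as follows. Shares in brackets are those of members and then of all genes called in that setting. EPF against ENF went from 0 to 4 with all 18 arrays (9.52% and 2.53%). With an intensity trend and robust variance it went to 1 (2.38% and 0.484%). Oral against Cranial gave 13 on 6 arrays (31% and 9.87%) and 12 with array weights (28.6% and 10.6%), against 3. Ventral against Dorsal gave 7 with array weights (16.7% and 5.23%) and 2 without Dorsal 1 and Ventral 1 (4.76% and 0.973%), against 0. Cranial against Dorsal gave 19 (45.2% and 55.6%) and 13 (31% and 38%) in these settings, against 5. Oral against Dorsal gave 24 (57.1% and 49.3%) and 21 (50% and 35%), and 6 on 6 arrays (14.3% and 5.85%), against 10. Oral against Ventral gave 26 (61.9% and 42.5%) and 21 (50% and 27.6%), against 9. Cranial against Ventral gave 22 (52.4% and 48.7%) and 14 (33.3% and 30.8%), and 13 on 6 arrays (31% and 36.7%), against 6. With single arrays left out, the counts ranged from 0 to 1 for EPF against ENF (1 without EPF 1), from 1 to 2 for Oral against Cranial (1 without Oral 3, Cranial 1 or Cranial 3) and from 0 to 0 for Ventral against Dorsal. They ranged from 2 to 10 for Cranial against Dorsal (2 without Cranial 1 or 3, 3 without Cranial 2, 10 without Dorsal 1) and from 6 to 16 for Oral against Dorsal (6 without Oral 3, 16 without Dorsal 1). They ranged from 4 to 13 for Oral against Ventral (4 without Oral 2, Ventral 2 or Ventral 3, 5 without Oral 3) and from 1 to 10 for Cranial against Ventral (1 without Cranial 3 or Ventral 3, 2 without Cranial 1, 3 without Cranial 2 or Ventral 2). Of all genes, 0.022% to 0.715% were called in these fits for EPF against ENF and 0.61% to 0.709% for Oral against Cranial. It was 0.0165% to 0.885% for Ventral against Dorsal, 9.04% to 33.8% for Cranial against Dorsal and 9.73% to 30.9% for Oral against Dorsal. It was 7.81% to 12.5% for Oral against Ventral and 9.02% to 12.9% for Cranial against Ventral. Fewer arrays enter these fits and other arrays set the spread in each, and beyond that the cause was not tested. With the replicate number as a block, 0, 2, 0, 4, 11, 11 and 4 members were called, for EPF against ENF, Oral against Cranial, Ventral against Dorsal, Cranial against Dorsal, Oral against Dorsal, Oral against Ventral and Cranial against Ventral. In the same order, 0.115%, 0.934%, 0.011%, 16.1%, 15.2%, 12.9% and 15.1% of all genes were called. Deviations of same-numbered arrays correlated at -0.384 to 0.302, with 4 of 21 over 0.1 and no comparison with all of its pairs over 0.1, so the numbers were not taken as pairs. The filter on dim genes left 24 members for EPF against ENF and 27 for the sites. Differences of members below the array median are limited by signal over background.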
